A study of Mus musculus with 8 samples.

Results

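Apolipoproteins and the proteins that assemble, carry and remodel lipoproteins were examined as a list of 37 named genes in mouse liver. The list was drawn up by gene symbol, with earlier results of these data known. Of these, 34 were measured by a probe set assigned to that gene only, among 22180 genes so measured. Where a gene had several such probe sets (Sort1, Lsr and Sdc1), the brightest over all 8 arrays stood for it. Apoc4 and Angptl6 were left out because their probe sets are shared, Apoc4 with Apoc2 and Angptl6 with Shfl, and Lipc, the hepatic lipase gene, was not analysed here.

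The livers came from mice 3 months old on chow that had received an adeno-associated virus (AAV) through a vein 2 weeks earlier and were killed at 5 pm, ZT10 of the light cycle. In the NCOR KO group (4 arrays) the virus carried Cre recombinase, which removes the floxed part of the gene for the corepressor NCOR. In the WT group (4 arrays) it carried GFP; the labels call these mice wild-type, whereas the series' design text has floxed mice under both viruses. The promoter driving Cre, the cells it reached and the strain are not given in the sources used here, Cre differs with the group throughout, and Ncor1 itself was not analysed here. The labels call the replicates biological without naming animals, so a p-value here reflects sample-to-sample spread, which may be technical. The comparison asks which liver transcripts differ when NCOR is removed.

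The liver packs triglyceride and cholesteryl ester around apolipoprotein B inside the endoplasmic reticulum and secretes the result as very-low-density lipoprotein (VLDL). Smaller apolipoproteins exchange between particles and steer them, some by activating or blocking lipoprotein lipase, others by binding receptors, while high-density lipoprotein (HDL) is built around apolipoproteins A-I and A-II. NCOR brings the deacetylase HDAC3 to nuclear receptors that have no activating ligand. Angptl4 is a known target of the fatty acid receptor PPARα, and Apoc3 of the repressor REV-ERBα.

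The sequences just upstream of Apoa4, Apon and Apoa5 are shown as examples. Apoa4 and Apon had the largest differences in either direction. Apoa5, on the same chromosome as Apoa4 and in the same cluster, lay on the other side of 0. None of these 3 genes had a limma adjusted p under 0.05. Each run is the 250 bases before the gene's start in RefSeq (GRCm38.p6), 5′ to 3′ on the gene's strand. Capitals mark exact matches, on either strand, to the motifs searched.

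Apoa4, chr9:46240594-46240843, + strand: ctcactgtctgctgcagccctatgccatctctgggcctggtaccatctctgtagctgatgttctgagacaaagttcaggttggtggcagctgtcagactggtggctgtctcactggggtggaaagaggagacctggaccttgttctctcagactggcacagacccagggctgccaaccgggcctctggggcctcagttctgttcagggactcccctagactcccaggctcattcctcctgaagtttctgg

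Apon, chr10:128253881-128254130, + strand: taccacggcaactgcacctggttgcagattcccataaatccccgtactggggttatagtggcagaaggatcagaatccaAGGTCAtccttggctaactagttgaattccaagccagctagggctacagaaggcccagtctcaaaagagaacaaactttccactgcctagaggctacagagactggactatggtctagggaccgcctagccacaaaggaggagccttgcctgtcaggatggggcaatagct

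Apoa5, chr9:46268358-46268607, + strand: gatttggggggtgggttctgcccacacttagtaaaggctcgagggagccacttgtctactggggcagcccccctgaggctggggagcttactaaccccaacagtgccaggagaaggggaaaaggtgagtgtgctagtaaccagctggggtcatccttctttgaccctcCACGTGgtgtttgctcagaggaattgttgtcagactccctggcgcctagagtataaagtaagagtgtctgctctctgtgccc

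The motifs were the nuclear receptor core AGGTCA alone, as a direct repeat with 1 or with 4 spacer bases, the REV-ERB and ROR core TAGGTCA (which contains AGGTCA), the HNF4 motif CAAAGTCCA and the E-box CACGTG. Promoter windows of 300 bases, 250 before and 50 after a start, were at hand for 28 of the 37 genes and for 27025 genes in all. Apon held 1 AGGTCA, 171 bases before its start, and Apoa5 held 1 E-box, 82 bases before the start shown. The Apoa4 window held none of these letters. AGGTCA was present in 7 of the 28 (25%) and in 18.1% of all genes, and the E-box in 2 of the 28 (7.14%) and 8.09% of all. TAGGTCA was found in 1 of the 28, Apoh, and in 2.97% of all genes. Neither direct repeat nor the HNF4 letters were found in any of the 28, against 0.0481%, 0.0148% and 0.555% of all genes. A match is only a description of the letters, and a window without one says nothing about the factor.

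All values are log2 of the deposited array intensity, differences are NCOR KO minus WT on that scale, and the threshold is an adjusted p under 0.05 from limma, with Benjamini-Hochberg adjustment over all 22180 genes. Array medians lay between 41 and 44.1 intensity units. On the second principal component of all genes WT replicate 2 and NCOR KO replicate 1 lay lowest, at -20.5 and -12.2. The hepatocyte marker albumin (Alb), the brightest gene measured, stood at 13.5 in both groups. The summed intensity of 7 hepatocyte markers, mostly very bright ones, was 51687 to 52965 in WT and 51714 to 52504 in NCOR KO liver. Of these 7, 3 differed upward and 0 passed an adjusted p of 0.05, with a median difference of -0.01. Ttr (-0.06) and Serpina1a (-0.12) read lower in every knockout than in every control. In whole liver, fewer cells of a type and less RNA per cell cannot be told apart.

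None of the 34 genes passed the threshold: 0 rose, where 0.816% of all genes did, and 0 fell, where 0.834% did. At an unadjusted p under 0.05 there were 9 of 34 (26.5%) against 15.9% of all genes, and at an adjusted p under 0.1 there were 3 (8.82%), namely Apon, Apoa4 and Mia3, against 3.64%. These shares of all genes are not matched for level, and all 34 lay above the median gene level. At the threshold itself 0.357% of genes under a log2 level of 6 passed. In brighter classes it was 2.06% (6 to 8), 3.9% (8 to 10), 4.66% (10 to 12) and 2.68% (12 and above). In a fit restricted to the brighter genes, those no dimmer than the median gene, Apoa4 passed upward and Apon and Mia3 downward. Apon also passed with array median centring, with array weights and with a trended, robust variance, and Mia3 with the last of these. The median difference of the 34 was -0.004, next to 0.006 for all genes, and their median absolute difference was 0.08 in both. In 19 of the 34 the 95% interval of the difference lay within 0.25 of 0, that is within 1.19-fold, as it did in 9686 of all 22180 genes. The median SD within a group was 0.07 for the 34 and 0.11 for all genes.

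In 12 of the 34 every NCOR KO value was beyond the WT range, and on the same side. Knockout was the higher group in 4 of these (Apoa4, Mttp, Sar1b and Gpihbp1), as in 4.90% of all genes, and the lower one in 8 (Apom, Apon, Apoa5, Mia3, Aadac, Lcat, Lmf1 and Clu), as in 5.49%. Such separation was more common among bright genes, at 17.9% of genes from 8 to 10, 21.4% from 10 to 12 and 25.4% at 12 and above, and all but 1 of the 34 lay in these classes. It depended on the scaling. After quantile normalization 4 were higher and 4 lower (Apon, Apoa5, Mia3 and Clu), next to 1085 higher and 1032 lower of all 22180 genes. After array median centring 2 were higher (Apoa4 and Gpihbp1) and 5 lower (Apom, Apon, Mia3, Lmf1 and Clu), next to 628 higher and 1678 lower of all genes, so centring moved the balance of all genes as well. Apoa4, Gpihbp1, Apon, Mia3 and Clu were thus the genes separated under all 3 scalings.

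**Figure D1:**
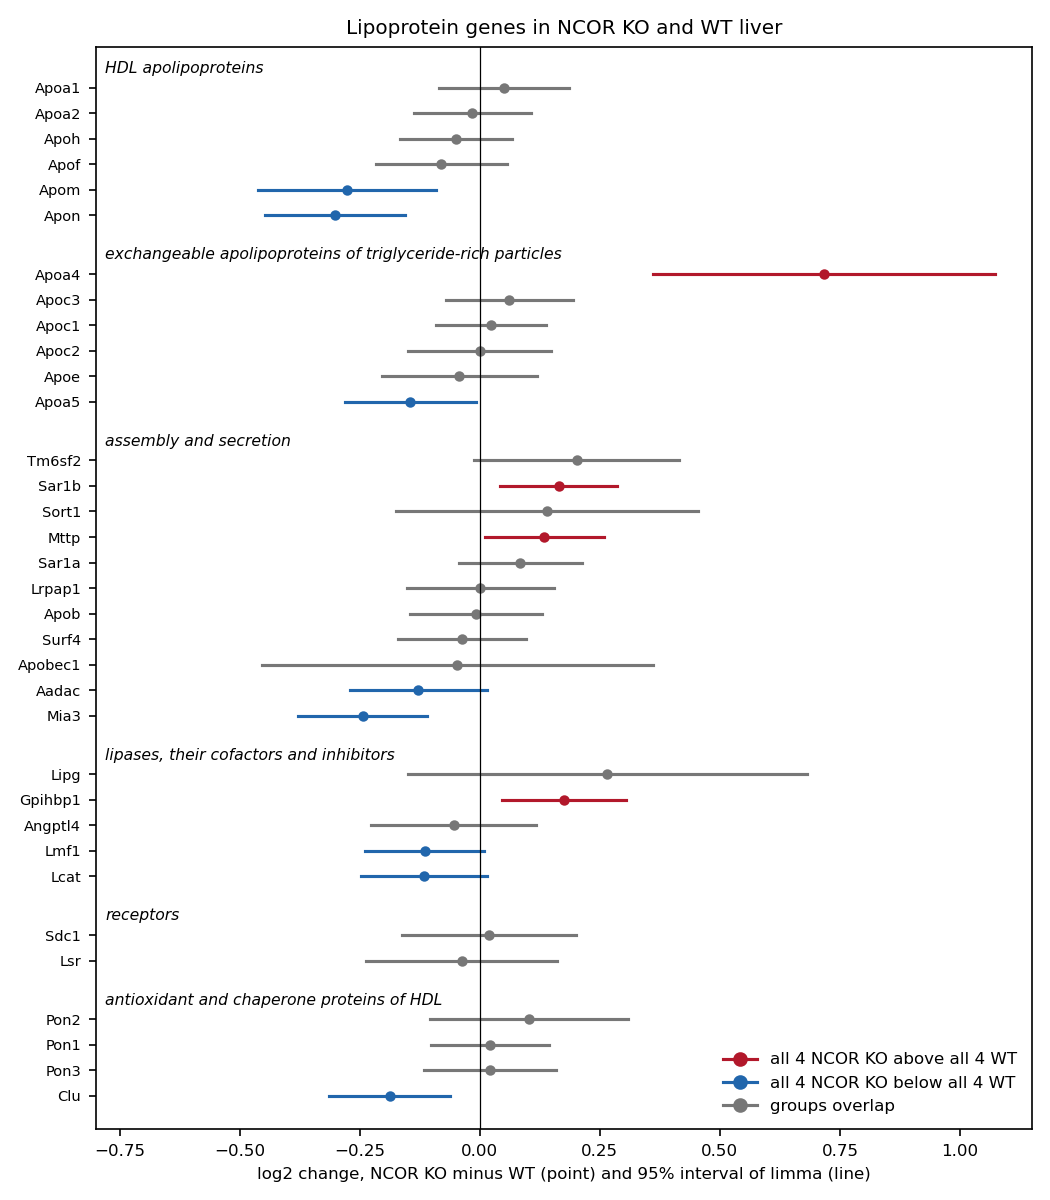
Log2 difference between NCOR KO and WT liver for 34 lipoprotein genes grouped by role, with the 95% interval from limma; red and blue mark genes whose 4 values per group do not overlap. Apoa4, at 0.72, stands apart from the others, which lie between -0.30 and 0.27.

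Among the apolipoproteins of HDL, the main structural proteins did not pass the threshold and had narrow intervals. Apoa1, which encodes the scaffold of HDL and activates LCAT, was at 12.39 ± 0.05 in WT and 12.44 ± 0.08 in NCOR KO liver (SD, n = 4), a difference of 0.05 (95% interval -0.09 to 0.19). Apoa2, the gene of the other major HDL protein, was the brightest of the 34. It read 13.24, 13.28, 13.19 and 13.17 in WT and 13.24, 13.21, 13.17 and 13.20 in NCOR KO liver, so the groups overlapped throughout. The difference was -0.02 (interval -0.14 to 0.11).

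Apon had the lowest difference of all 34. Its WT values were 11.92, 11.82, 11.76 and 11.78, and its NCOR KO values 11.41, 11.54, 11.51 and 11.62. Every knockout liver read below every control, and the lowest was NCOR KO replicate 1. The difference was -0.30 ± 0.07 (SE), 1.23-fold lower, with a limma adjusted p of 0.0522. That p ran from 0.0160 to 0.149 over 17 alternative fits, in 4 of which it passed.

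Apom, whose protein carries a bioactive sphingolipid on HDL, read 9.85, 10.04, 9.72 and 9.89 in WT and 9.56, 9.44, 9.70 and 9.69 in NCOR KO liver. The groups were parted by a narrow gap, between WT replicate 3 and NCOR KO replicate 3. The difference was -0.28 ± 0.08 (SE; limma adjusted p = 0.141), and the groups overlapped after quantile normalization. Apof, known in humans to inhibit cholesteryl ester transfer, differed by -0.08, and the phospholipid-binding Apoh by -0.05, with adjusted p-values of 0.563 and 0.693. Of the 6 HDL genes 5 lay below 0 and 0 passed. Below 0 were also 18 of the 34 and 10641 of all 22180 genes, and Apoa2 took the opposite sign in 2 of 17 alternative fits.

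The exchangeable apolipoproteins of triglyceride-rich particles held the widest contrast. Apoa4 encodes an apolipoprotein of chylomicrons and HDL that mouse liver makes as well as intestine. WT livers read 10.20, 10.77, 10.72 and 10.99, and NCOR KO livers 11.52, 11.57, 11.07 and 11.40. All knockout values exceeded all controls, with WT replicate 1 far below the other controls and NCOR KO replicate 3 close to the highest of them. The means, 10.67 ± 0.33 and 11.39 ± 0.23 (SD, n = 4), differed by 0.72 ± 0.16 (SE), 1.64-fold, with a 95% interval of 0.36 to 1.07 and a limma adjusted p of 0.0586. Without WT replicate 1 the difference was 0.56, and without NCOR KO replicate 3 it was 0.82. Over the 17 alternative fits the adjusted p ran from 0.0410 to 0.163.

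Apoa5, whose protein promotes the action of lipoprotein lipase, read 11.68, 11.72, 11.72 and 11.72 in WT and 11.43, 11.59, 11.58 and 11.66 in NCOR KO liver. Controls were tightly grouped, knockouts lower and more spread. The difference was -0.14 ± 0.06 (SE; limma adjusted p = 0.289), and with array median centring the groups overlapped. Apoc3, which inhibits lipoprotein lipase and particle uptake, differed by 0.06 (interval -0.07 to 0.19), and Apoc2, the lipase's cofactor, by -3.9e-04 (interval -0.15 to 0.15). Apoe, the ligand for receptor uptake of remnants, differed by -0.04 (interval -0.20 to 0.12).

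Apoc1, whose protein slows particle clearance, was the third brightest of the 34. Its WT values of 12.87, 12.88, 12.87 and 12.81 stood beside 12.87, 12.87, 12.87 and 12.91 in NCOR KO liver. The difference was 0.02, and the other way round, at -0.01, with array median centring. The probe set that Apoc4 shares with Apoc2 read 12.06 in WT and 12.05 in NCOR KO liver. For Angptl6, the shared probe set read 6.98 and 6.95.

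**Figure D2:**
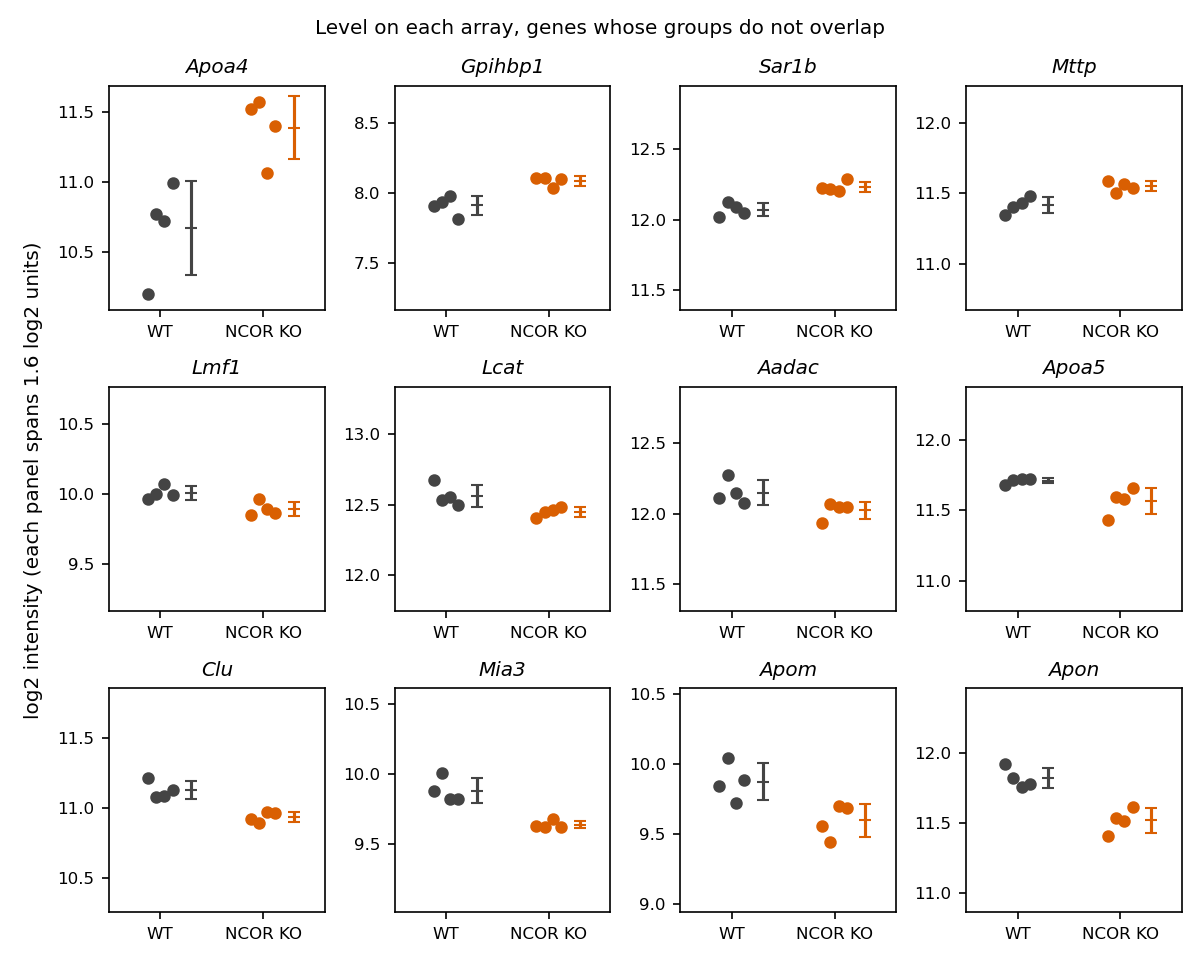
Log2 intensity on each of 4 WT and 4 NCOR KO arrays for the 12 lipoprotein genes whose groups do not overlap, with the mean and SD beside the points; every panel spans the same range. The difference is 0.72 for Apoa4 and between -0.30 and 0.18 for the others, and none of the 12 passed the threshold.

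Several of these genes sit side by side in the genome (GRCm38.p6), and the differences of neighbours are set side by side here. On chromosome 9, Apoa1 (46228630 to 46230469), Apoc3 (46233050 to 46235636), Apoa4 (46240844 to 46243458) and Apoa5 (46268608 to 46271921) lie within 43.3 kb. Their differences ran 0.05, 0.06, 0.72 and -0.14 in that order. The interval of Apoa4 (0.36 to 1.07) overlapped none of the other 3. In the cluster on chromosome 7, within 29.7 kb, Apoc2, Apoc1 and Apoe differed by -3.9e-04, 0.02 and -0.04. On chromosome 10, Apon starts 14.6 kb before Apof, and their intervals, -0.45 to -0.16 and -0.22 to 0.06, overlapped. The paraoxonase genes Pon1, Pon3 and Pon2 on chromosome 6 differed by 0.02, 0.02 and 0.10.

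**Figure D3:**
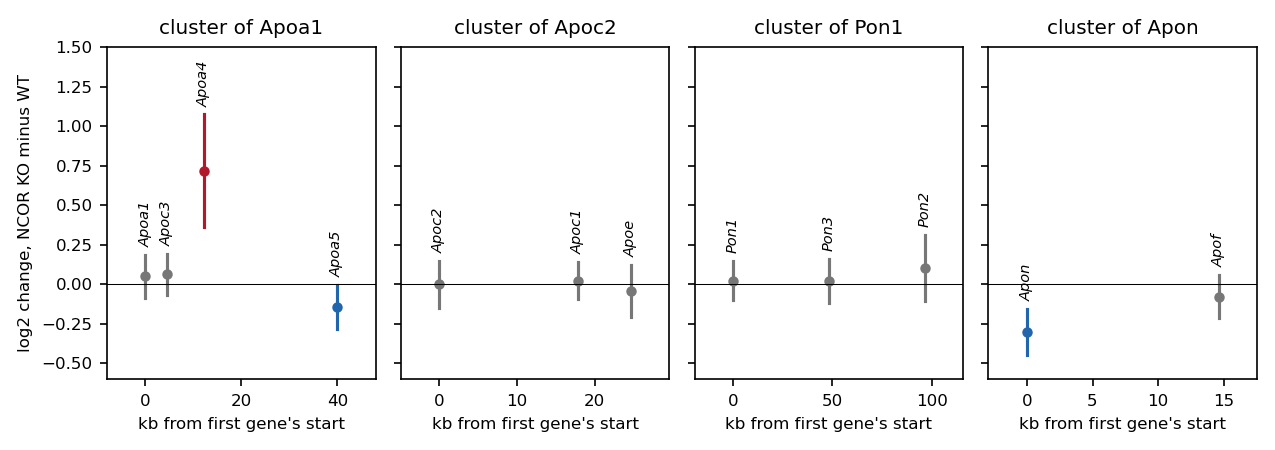
Log2 difference, NCOR KO minus WT, with its 95% interval against distance from the first gene's start in kb for 4 groups of neighbouring genes; red, blue and grey mark knockout higher, lower and overlapping groups. In the first panel only Apoa4 lies well above 0.

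In the genes of VLDL assembly and secretion, Apob itself had a narrow interval around 0. Apob read 13.13, 13.14, 13.00 and 13.16 in WT and 13.18, 13.11, 13.08 and 13.03 in NCOR KO liver. Those groups overlapped, and the difference was -0.01 (interval -0.15 to 0.13). Apobec1, whose enzyme edits the Apob transcript so that a truncated protein is made, was much more variable. It ranged from 8.37 to 9.40 among WT livers and from 8.51 to 8.92 among knockouts, with a difference of -0.05 (interval -0.45 to 0.36). Single arrays set its sign and size: it was 0.13 without WT replicate 1, 0.05 without NCOR KO replicate 1 and -0.21 without WT replicate 2.

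Mttp, the transfer protein that loads lipid onto nascent apolipoprotein B, read 11.35, 11.40, 11.43 and 11.48 in WT and 11.59, 11.51, 11.57 and 11.54 in NCOR KO liver. Knockouts were all higher, by 0.13 ± 0.06 (SE; limma adjusted p = 0.276), and with array median centring the groups overlapped. Sar1b, a GTPase of the vesicle coat that exports lipoproteins, read 12.02, 12.12, 12.09 and 12.05 against 12.23, 12.22, 12.20 and 12.29. It was higher in every knockout liver, by 0.16 ± 0.05 (SE; adjusted p = 0.178), and its groups too overlapped with array median centring. Its paralog Sar1a differed by 0.08 with overlapping groups. Tm6sf2, a membrane protein needed to lipidate VLDL, differed by 0.20 (interval -0.01 to 0.42) with overlapping groups.

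Mia3, a cargo receptor that loads bulky cargo into vesicles, was lower. Its WT values were 9.88, 10.01, 9.82 and 9.82, and its NCOR KO values 9.63, 9.62, 9.68 and 9.62. The knockout values were nearly alike and all below the controls. The difference was -0.24 ± 0.06 (SE; limma adjusted p = 0.0807, 0.0451 to 0.209 over 17 alternative fits, 2 of which it passed).

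Aadac, an esterase of the endoplasmic reticulum linked to the release of stored triglyceride, read 12.11, 12.28, 12.14 and 12.07 in WT and 11.93, 12.07, 12.05 and 12.04 in NCOR KO liver. WT replicate 4 and NCOR KO replicate 2 all but touched. The difference was -0.13 ± 0.06 (SE; limma adjusted p = 0.368), and the separation was gone after either rescaling. Surf4, another export receptor, differed by -0.04, the sorting receptor gene Sort1 by 0.14 (interval -0.18 to 0.45) and Lrpap1, a chaperone of lipoprotein receptors, by 0.001. Leaving out NCOR KO replicate 1 brought Sort1 to 0.02, whereas leaving out WT replicate 1 brought it to 0.24 and WT replicate 3 to 0.06. Its dimmer probe set gave 0.06. Of these 11 genes 0 passed, 6 lay above 0 and 5 below.

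Among lipases and the proteins that act on them, Lcat, the enzyme that esterifies cholesterol on HDL, read 12.67, 12.53, 12.55 and 12.50 in WT and 12.40, 12.45, 12.46 and 12.48 in NCOR KO liver. All knockouts lay below all controls, with NCOR KO replicate 4 just under WT replicate 4. The difference was -0.12 ± 0.06 (SE; limma adjusted p = 0.374), and the groups overlapped after either rescaling. Lmf1, needed in the endoplasmic reticulum for lipases to fold, read 9.96, 10.001, 10.07 and 9.99 against 9.85, 9.96, 9.89 and 9.86. Its difference was -0.12 ± 0.06 (SE; adjusted p = 0.348), and the groups overlapped after quantile normalization. Angptl4, a lipoprotein lipase inhibitor, differed by -0.05 (interval -0.23 to 0.12).

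Gpihbp1, which holds lipoprotein lipase on capillary endothelium, read 7.91, 7.94, 7.98 and 7.82 in WT and 8.11, 8.11, 8.04 and 8.10 in NCOR KO liver. It was higher in all 4 knockouts, by 0.18 ± 0.06 (SE; limma adjusted p = 0.174). Endothelial markers read higher beside it: 12 of 12 had a difference above 0, with a median of 0.21, and 1, Robo4, passed (0.35, adjusted p = 0.0429). Their summed intensity was 6865 to 8167 in WT and 8001 to 9274 in NCOR KO liver, and their part in the result was not tested. Lipg, the endothelial lipase gene, read 9.14, 10.08, 10.14 and 9.96 in WT and 10.25, 9.99, 10.10 and 10.04 in NCOR KO liver. WT replicate 1 stood alone below the other 7 arrays. The difference was 0.27 (interval -0.15 to 0.68), and 0.04 without WT replicate 1. That array also read highest of all for Saa2, a gene of the wider lipoprotein list described below. It stood at 12.07 there, against 8.89, 9.70 and 7.69 in the other WT arrays. Among the separated genes WT replicate 1 was also the control farthest from the knockouts for Apoa4, Mttp, Sar1b, Apon, Lcat and Clu. For Apom, Apoa5, Mia3, Aadac, Lmf1 and Gpihbp1 another control was. Without WT replicate 1 the separated genes still numbered 12, and Apon differed by -0.27 and Lcat by -0.08. Whether this sample differs more widely was not tested.

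The receptor genes Lsr, the lipolysis-stimulated lipoprotein receptor, and Sdc1, a heparan sulfate proteoglycan that takes up remnants, differed by -0.04 and 0.02. Lsr's dimmer probe set gave 0.08 and that of Sdc1 -0.01, so the probe sets of each gene differed in sign. Pon1, an antioxidant enzyme carried on HDL, read 12.60, 12.61, 12.65 and 12.54 in WT and 12.58, 12.63, 12.60 and 12.68 in NCOR KO liver, with overlapping groups. The paraoxonases Pon3 and the intracellular Pon2 overlapped as well, Pon2 with an interval of -0.10 to 0.31.

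Clu, which encodes clusterin, a secreted chaperone also called apolipoprotein J, read 11.22, 11.08, 11.09 and 11.13 in WT and 10.93, 10.90, 10.97 and 10.97 in NCOR KO liver. It was lower in every knockout, by 0.19 on the log2 scale, and stayed separated under all 3 scalings (limma adjusted p = 0.141). Among markers of other liver cells, all 5 cholangiocyte markers measured had differences above 0, with a summed intensity of 317 to 332 in WT and 368 to 434 in NCOR KO liver, and 1, Epcam, rose (0.41, adjusted p = 0.0452). Groups overlapped for Sox9 (0.32), Cftr (0.23), Krt19 (0.08) and Krt7 (0.07). Cftr and Krt7 were dim, at 3.99 and 5.54, and Krt19 and Epcam stood at 5.99 and 6.03. Lymphocyte markers summed to 217 to 234 and 246 to 278, with 2 of 5 risen (Cd3e and Cd79a). Both were dim, at 5.80 and 5.29 against a median gene level of 5.88. Of the 5, 4 lay above 0, and Cd3g differed by -0.04. None of 8 stellate or 4 adipocyte markers passed, with median differences of 0.01 and 0.02. The part of these cells in any result was not tested.

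Many of these transcripts are among the brightest on the array. Of the 34, 21 were in the top 5% of genes by level and 9 in the top 1%, with Apoa2 ranked 12 and Apob 20 of 22180. Apoa2 averaged 13.21, 0.48 below the highest log2 value on any array, 13.70. The 9 genes at 12 or above (Apoa2, Apob, Apoc1, Pon1, Lcat, Apoa1, Apoh, Sar1b and Aadac) had a median absolute difference of 0.05 and a median SD within a group of 0.05. The 224 genes of that class together had the same medians, 0.05 and 0.05, and a largest difference of 0.72, and 6 of them (2.68%) passed the threshold. In genes from 10 to 12 the median absolute difference was 0.08, the largest 2.10, and 4.66% passed. The deposited table has no mark for saturated probes, and whether the brightest readings are compressed was not tested.

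**Figure D4:**
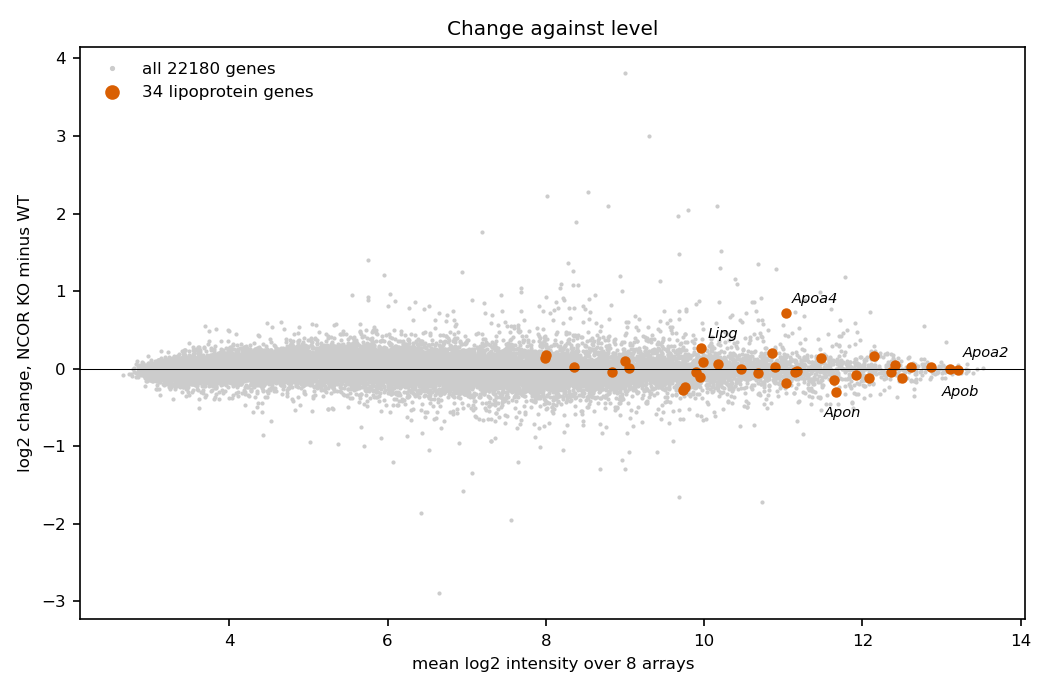
Log2 difference, NCOR KO minus WT, against mean log2 intensity for 22180 genes (grey) and 34 lipoprotein genes (orange). All 34 lie above the median gene level of 5.88, with 11 of them from 8 to 10 and 1 from 6 to 8. The grey cloud narrows from 10 towards 13.70.

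Other genes of lipoprotein metabolism, taken from a list of 52 of which 45 were measured, did include changed ones. Of the 45, 6 rose, 1 fell and 38 did not pass, with a median difference of 0.03; of all genes 0.816% rose and 0.834% fell. Those shares of all genes are not matched for level. The 45 had a median level of 10.2, and of all genes from 10 to 12, 4.66% passed. This list too was chosen with earlier results known, so its count is a description. Pltp, which transfers phospholipid between particles and HDL, rose from 9.46 ± 0.43 to 10.97 ± 0.14 (SD, n = 4), 2.86-fold (limma adjusted p = 0.00339). Lpl, lipoprotein lipase itself, rose 1.85-fold from 6.63 to 7.51 (limma adjusted p = 0.00888), or by 0.49 on the log2 scale with the mean of its probe sets. Its mean level of 7.07 was above the median gene level of 5.88 and below the lowest of the 34, 7.99.

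Cd36, a fatty acid translocase, rose 2.46-fold, and Lipa, the lysosomal lipase that degrades lipoprotein lipids, rose 1.34-fold (adjusted p = 0.00903 and 0.00936). Fitm2, which helps form lipid droplets, rose 1.32-fold and Lpcat3, which remodels phospholipids, 1.23-fold (adjusted p = 0.0177 and 0.0326). Saa4, a constitutive HDL apolipoprotein gene, fell by 0.37 on the log2 scale (adjusted p = 0.0404). Over 17 alternative fits the call was lost in 1 for Cd36, 3 for Fitm2, 10 for Lpcat3 and 9 for Saa4. Abca1, which exports cholesterol to nascent HDL, was at 0.27 (adjusted p = 0.0751), and Scarb1, the HDL receptor gene, at 0.15 (adjusted p = 0.427). Kupffer cell and macrophage markers, beside these genes, had a summed intensity of 2181 to 4247 in WT and 2670 to 4666 in NCOR KO liver. Of their 8 differences 7 lay above 0 and 0 passed the threshold. Each of the 8 read lowest in WT replicate 2 among controls and in NCOR KO replicate 1 among knockouts. So did Apobec1 (8.37 and 8.51). These arrays also lay lowest on the second principal component of all genes. The part of these cells in any result was not tested.

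**Figure D5:**
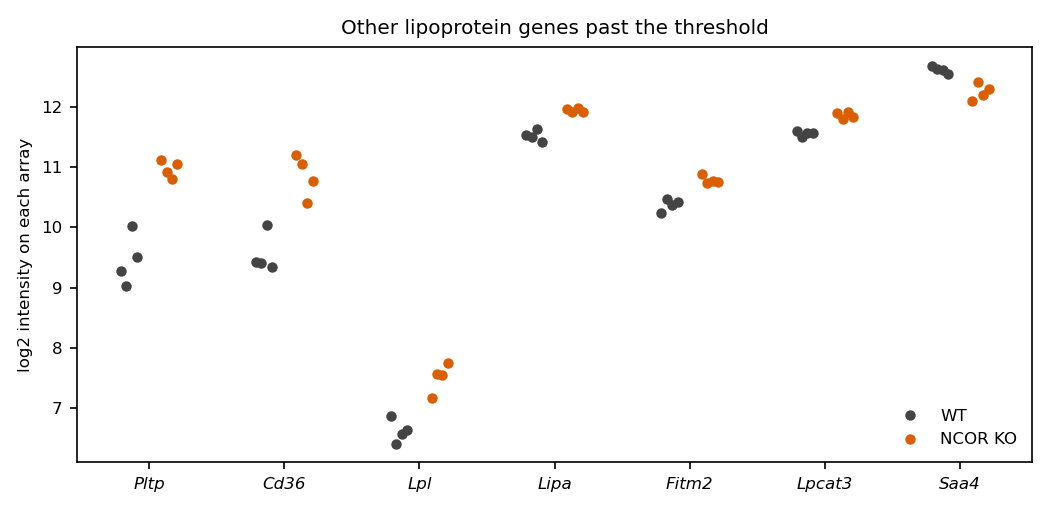
Log2 intensity on each of 4 WT (grey) and 4 NCOR KO (orange) arrays for the 7 other lipoprotein genes past the threshold. Knockout values lie above all controls for Pltp, Cd36, Lpl, Lipa, Fitm2 and Lpcat3 and below them for Saa4.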

How the data were processed

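Liver RNA of 8 samples was hybridised to Affymetrix Mouse Gene 2.0 arrays with a single label. The deposited table gives intensity per probe set, not in logs, and per the submitters' processing notes RMA and Partek were used; their settings and the genome build are not given in the sources used here. Log2 was taken with no further scaling and no filter on dim genes. Of 41345 probe sets 23521 were assigned to 1 gene, 1814 to several and 16010 to none; the first were used, giving 22180 genes by the brightest probe set. All 34 genes described matched RefSeq (GRCm38.p6).

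NCOR KO was set against WT by limma 3.58.1 (lmFit and eBayes, no covariates; R 4.3.3), with Benjamini-Hochberg adjustment over 22180 genes. The members, lists, tests and alternatives were chosen with earlier results of these data known. Arrays are given singly for genes that passed in an alternative covering all genes and all 8 arrays, did not overlap, were among the 4 brightest or differed by 0.25 or more. On simulated data the fit found 26% of 50 genes given a 1.2-fold change, then 76% (1.5-fold), 90% (2-fold) and 96% (4-fold). It called 8 unchanged genes there, and 0 where none was changed. The changed genes were drawn at random from all 22180, so these rates are not those of the 34 genes described. The median SD within a group was 0.07 for the 34 and 0.11 for all genes. Alternatives varied scaling, array weights, variance model, genes tested, probe-set rule, replicate block and single arrays. The number of arrays limits the precision. Plots used Python 3.11.15 and matplotlib 3.10.9.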

Additional observations from a re-analysis of the deposited data

Results flagged for a closer look

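In 7 of 68 sets of 4 arrays, 1 value lay far from the other 3, by a gap of more than 0.83 of the whole range; chance gives about 1 in 20. For Apoa1, NCOR KO replicate 1 lay below the other knockouts (12.32 against 12.47 to 12.49, a gap of 0.884 of the range). The same array lay lowest for Apobec1 (8.51 against 8.88 to 8.92, 0.900). In Apoc1, WT replicate 4 was low (12.81 against 12.87 to 12.88, 0.928) and NCOR KO replicate 4 high (12.91 against 12.87, 0.861). For Apob, WT replicate 3 was low (13.00 against 13.13 to 13.16, 0.858). NCOR KO replicate 3 was the knockout nearest to the controls for Mia3 (9.68 against 9.62 to 9.63, 0.837) and for Gpihbp1 (8.04 against 8.10 to 8.11, 0.842), without reaching them.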

How the results depend on the processing

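The count of the 34 genes that rose stayed at 0 in 16 of 17 alternative fits and was 1 among genes at or above the median level and 1 at a threshold of 0.1. The count that fell was 1 with array median centring, 1 with array weights, 2 with a trended and robust variance, 2 among genes at or above the median level and 2 at the threshold of 0.1, and 0 in the others, each array left out included. With array median centring 7 genes had groups that did not overlap, next to 10.4% of all genes, the same share as for the values as deposited, where 12 did. With WT replicate 2 and NCOR KO replicate 1 both left out, an alternative chosen after seeing the data, 0 passed the threshold. Of the 34 genes 11 took the opposite sign in at least 1 fit, among them Apobec1, which ran from -0.21 to 0.13. The 12 separated genes took it in none, but for them only a rescaling could have reversed the sign. Of the other 45 lipoprotein genes 7 passed as reported, 4 to 7 without single arrays (4 without NCOR KO replicate 1) and 3 with the replicate block, where 0 of the 34 rose and 0 fell and Cd36 had an adjusted p of 0.0523. The labels do not say that a number pairs arrays, same-numbered arrays had correlations of -0.09 to 0.02 in their deviations, and none of the 4 correlated best with its own number. Over all genes 366 passed as reported (181 higher and 185 lower), 155 with the replicate block and 551 when the dimmer genes were left out. Counts of all genes ran from 120 to 297 without single arrays, and array median centring made 145 higher and 295 lower. All 34 lay above the median gene level of 5.88.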
